A study of Mus musculus with 9 samples.

Results

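Fast-twitch skeletal muscle carries a characteristic set of transcripts for its contractile filaments, for the calcium stores that trigger contraction and for rapid energy supply. A list of 41 such genes was followed in rat ulcer skin. Of these, 37 had a row of that name in the gene table and 37 passed the filter on low values (at least 0.5 FPKM in 3 or more of 9 libraries), among 15600 features tested and 28370 in all. Myh1, Atp2a1, Pvalb and Smpx had no row of that name and were not analysed here. The lowest member at the filter was Jph1, whose value was 4.11 FPKM in the library ranked 3 of 9, so none of the 37 lay close to the threshold.

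RNA came from the skin of ulcers sampled on day 21, and each of 3 groups had 3 libraries. The first group of rats was diabetic and received 0.5 ml of platelet-rich plasma (PRP, plasma enriched in platelets) injected into the wound on days 1, 7, 14 and 21. The second was diabetic and received the same volume of saline, and the third had non-diabetic ulcers and saline. The labels state neither how diabetes was induced nor the strain, the age or how deep the tissue was cut. The study asked how diabetes and PRP affect ulcer healing. Values are FPKM (fragments scaled to gene length and library depth), and may be compared between genes.

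A sarcomere, the unit of contraction, holds thin filaments of actin with troponin and nebulin, thick filaments of myosin, and titin, which spans from the Z-disc at its edge to the M-band at its centre. An action potential activates the dihydropyridine receptor in the tubule membrane, and this opens the ryanodine receptor of the sarcoplasmic reticulum. The released calcium binds troponin C. Rodent skin has a thin sheet of such muscle under the dermis, the panniculus carnosus, which is rich in fast fibres. In bulk tissue, fewer muscle fibres and less muscle RNA per fibre cannot be told apart.

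All 37 genes averaged higher in diabetic than in non-diabetic ulcers, and 33 of 37 averaged lower in PRP-treated than in saline-treated diabetic ulcers. None of these differences passed at an adjusted p under 0.05. The spread between libraries of the same group was wide. Summed over the 37 genes, the level was 9869, 8221 and 6883 FPKM in PRP replicates 1 to 3, 25813, 13108 and 6711 FPKM in diabetic replicates 1 to 3, and 418, 7189 and 4006 FPKM in non-diabetic replicates 1 to 3. These sums were 0.971% to 1.35% of all FPKM in the PRP libraries, 0.992% to 4.49% in the diabetic libraries and 0.0742% to 1.18% in the non-diabetic libraries. The diabetic and non-diabetic sums thus overlapped. In summed FPKM, diabetic replicate 3 stood below every PRP library. As a share of all FPKM, its 0.992% lay above the 0.971% of PRP replicate 3.

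A pair of libraries set the extremes. Non-diabetic replicate 1 was the lowest of the 9 libraries for 37 of 37 genes. Diabetic replicate 1 was the highest for 31 of 37, and diabetic replicate 2 for the other 6 (Neb, Myh2, Actn2, Xirp1, Klhl41 and Mb). The ratio of the highest to the lowest library had a median of 59.9 over the 37 genes and ran from 5.40 for Myoz3 to 133 for Mb. Libraries of the PRP group were the most alike: for 36 of 37 genes this group had the smallest SD on the log2 scale, and for 30 of 37 the non-diabetic group had the largest. The mean log2(FPKM + 1) of the 37 genes was 6.22 ± 0.332 in PRP, 6.98 ± 1.04 in diabetic and 4.86 ± 1.79 in non-diabetic ulcers (SD, n = 3 each). Over the whole table, FPKM sums ran from 564078 to 728332 and relative depth, from counts and FPKM of 55 lncRNA genes, from 0.836 to 1.11. Between 38.5% and 52.7% of the FPKM fell on the top 10 features of a library. Non-diabetic replicate 1 was at a relative depth of 0.909, above non-diabetic replicate 3 at 0.836.

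**Figure D1:**
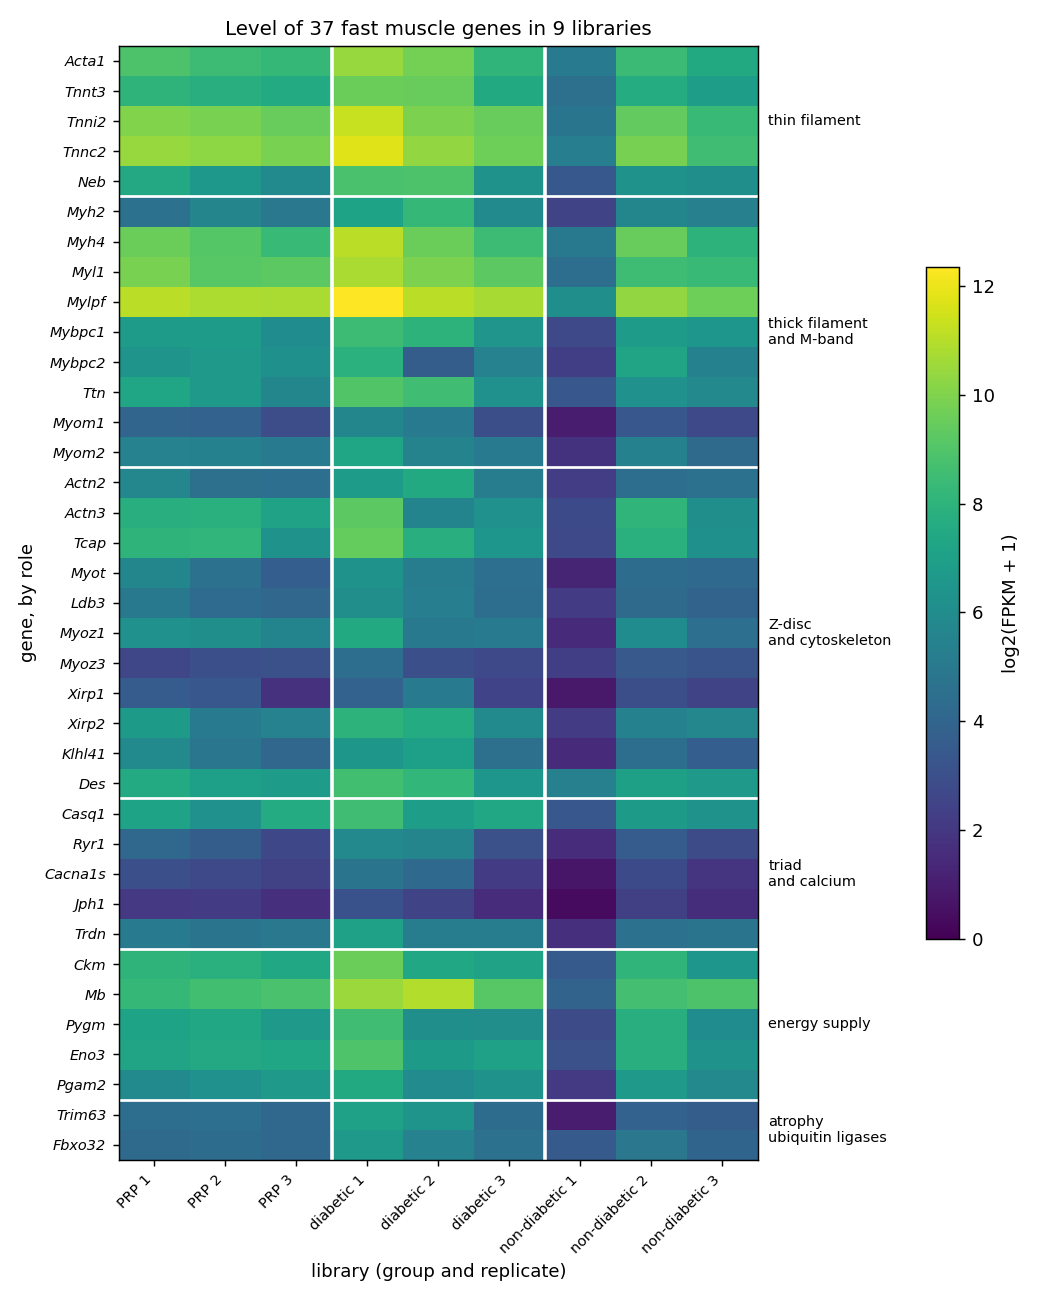
Level of 37 fast muscle genes (rows, grouped by role) in 9 libraries (columns, by group and replicate), as log2(FPKM + 1) on a colour scale from 0. Non-diabetic replicate 1 is the darkest column for 37 of 37 genes, and diabetic replicate 1 is the brightest for 31 of 37.

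Thin filament genes include the calcium-sensing troponin complex of fast fibres. Tnnc2, the calcium-binding troponin C of fast fibres (chromosome 3, 153513271 to 153516029), stood at 1415, 1201 and 947 FPKM in PRP replicates 1 to 3, 3487, 1315 and 795 FPKM in diabetic replicates and 37.5, 894 and 379 FPKM in non-diabetic replicates. Tnni2, the inhibitory troponin subunit (chromosome 1, 197594813 to 197597560), stood at 1029, 927 and 726 FPKM in PRP ulcers, 2519, 972 and 707 FPKM in diabetic ulcers and 27.0, 663 and 320 FPKM in non-diabetic ulcers. For Tnni2 the 3 diabetic libraries all lay above the 3 non-diabetic ones, while for Tnnc2 diabetic replicate 3 lay below non-diabetic replicate 2. The log2 difference of diabetic from non-diabetic ulcers was 2.73 for Tnni2 (SE 1.03, adjusted p = 0.104, limma) and 2.71 for Tnnc2 (SE 1.04, adjusted p = 0.108, limma).

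Acta1, the skeletal alpha-actin of the thin filament, stood at 482, 358 and 295 FPKM in PRP, 1417, 886 and 270 FPKM in diabetic and 33.2, 345 and 183 FPKM in non-diabetic replicates 1 to 3. Its groups overlapped, since diabetic replicate 3 was below non-diabetic replicate 2. Its log2 difference of 2.43 (SE 0.86, adjusted p = 0.0902, limma) was the smallest of the 5 thin filament genes. Those of Tnnt3, the tropomyosin-binding troponin, and Neb, the filament-spanning nebulin, lay between it and that of Tnni2. All 5 had an unadjusted p under 0.05. Acta1 shares much sequence with other actin genes, and the labels do not say how reads that match several genes were treated.

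Thick filament genes held the most abundant member. Mylpf, the regulatory light chain of fast myosin (chromosome 1, 181829743 to 181832545), stood at 2184, 1840 and 1756 FPKM in PRP, 5230, 2125 and 1733 FPKM in diabetic and 69.0, 1293 and 800 FPKM in non-diabetic replicates 1 to 3. Myl1, the essential light chain of fast myosin, stood at 930, 569 and 602 FPKM in PRP, 1736, 951 and 602 FPKM in diabetic and 21.4, 360 and 318 FPKM in non-diabetic replicates. For both light chains, the PRP and the diabetic libraries all lay above the non-diabetic ones. The log2 difference of diabetic from non-diabetic ulcers was 2.86 for Myl1 (SE 0.97, adjusted p = 0.0823, limma), the largest of the 9 thick filament and M-band genes, and 2.68 for Mylpf (SE 0.97, adjusted p = 0.0955, limma).

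Mybpc2, the fast myosin-binding protein C, stood at 83.4, 101 and 73.1 FPKM in PRP, 235, 11.5 and 42.8 FPKM in diabetic and 3.88, 146 and 42.0 FPKM in non-diabetic replicates 1 to 3. Diabetic replicate 2, which was high for most of the 37 genes, was here the lowest library but for non-diabetic replicate 1. The log2 difference of diabetic from non-diabetic ulcers was 0.69 (SE 1.30, 95% interval -2.26 to 3.64), the smallest of this role, and turned to -0.65 without non-diabetic replicate 1 and to -0.42 without diabetic replicate 1.

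Z-disc and cytoskeletal genes gave both kinds of pattern. Actn3, the alpha-actinin of fast fibres (chromosome 1, 202159082 to 202175012), stood at 220, 230 and 136 FPKM in PRP, 601, 46.0 and 74.5 FPKM in diabetic and 5.91, 268 and 70.4 FPKM in non-diabetic replicates 1 to 3. Tcap, the titin cap, stood at 259, 281 and 80.0 FPKM in PRP, 694, 218 and 90.3 FPKM in diabetic and 5.67, 230 and 72.8 FPKM in non-diabetic replicates. In both genes the groups overlapped, and non-diabetic replicate 2 was above diabetic replicates 2 and 3. The log2 difference of diabetic from non-diabetic ulcers was 1.34 for Actn3 (SE 1.32) and 2.31 for Tcap (SE 1.25), and without non-diabetic replicate 1 these were -0.11 for Actn3 and 0.88 for Tcap.

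Klhl41, a muscle protein that stabilises nebulin, had the largest difference of the 11 genes of this role. It stood at 57.0, 28.1 and 15.6 FPKM in PRP, 93.3, 125 and 22.4 FPKM in diabetic and 1.87, 21.4 and 11.8 FPKM in non-diabetic replicates 1 to 3. The 3 diabetic libraries lay above the 3 non-diabetic ones, narrowly so for diabetic replicate 3 over non-diabetic replicate 2, and the log2 difference was 2.80 (SE 0.87, adjusted p = 0.0695, limma). Actn2, the alpha-actinin of all striated fibres, was chosen after its values were seen, as the partner of Actn3. It stood at 50.9, 22.6 and 21.7 FPKM in PRP, 109, 180 and 36.6 FPKM in diabetic and 3.70, 20.9 and 23.5 FPKM in non-diabetic replicates. Its diabetic libraries lay above all non-diabetic ones (log2 difference 2.74, SE 0.75, adjusted p = 0.0542, limma).

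Myoz3, a calsarcin that tethers calcineurin at the Z-disc, varied least of the 37 genes. It stood at 5.18, 7.17 and 7.28 FPKM in PRP, 20.7, 7.09 and 5.57 FPKM in diabetic and 3.84, 9.75 and 8.11 FPKM in non-diabetic replicates 1 to 3, and its groups overlapped (log2 difference of diabetic from non-diabetic ulcers 0.43, SE 0.46). Without diabetic replicate 1 that difference was -0.10. Des, the intermediate filament protein desmin, which smooth muscle also makes, had a ratio of highest to lowest library of 9.72. It and the ubiquitin ligase gene Fbxo32, at 9.58, were the only other members below 10.

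The triad and calcium genes, 5 in number, all averaged higher in diabetic than in non-diabetic ulcers, and 4 had an unadjusted p under 0.05. Casq1, which binds calcium inside the sarcoplasmic reticulum of fast fibres (chromosome 13, 84670649 to 84680339), stood at 145, 74.3 and 191 FPKM in PRP, 379, 120 and 170 FPKM in diabetic and 9.19, 104 and 80.5 FPKM in non-diabetic replicates 1 to 3. Trdn, triadin, which anchors calsequestrin to the ryanodine receptor, stood at 32.9, 25.8 and 30.1 FPKM in PRP, 132, 36.3 and 35.8 FPKM in diabetic and 2.20, 24.5 and 25.6 FPKM in non-diabetic replicates. In both genes the diabetic libraries lay above the non-diabetic ones, by a log2 difference of 2.17 for Casq1 (SE 0.85, adjusted p = 0.114, limma) and 2.13 for Trdn (SE 0.81, adjusted p = 0.107, limma). For Trdn the PRP libraries lay between them, with no overlap with either group.

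Jph1, which ties the tubule membrane to the sarcoplasmic reticulum, was the least abundant member. It stood at 3.18, 3.55 and 2.17 FPKM in PRP, 7.68, 4.76 and 1.98 FPKM in diabetic and 0.298, 4.11 and 2.02 FPKM in non-diabetic replicates 1 to 3, with overlapping groups (log2 difference of diabetic from non-diabetic ulcers 0.97, SE 0.52, adjusted p = 0.214, limma). The ryanodine receptor gene Ryr1 and the dihydropyridine receptor gene Cacna1s averaged 36.8 and 15.5 FPKM in diabetic ulcers, and 6.41 and 3.02 FPKM in non-diabetic ulcers. Both had an unadjusted p under 0.05 and overlapping groups.

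Among energy genes, Mb, the oxygen-storing myoglobin (chromosome 7, 108759904 to 108767383), stood at 302, 393 and 441 FPKM in PRP, 1440, 1930 and 558 FPKM in diabetic and 14.5, 406 and 485 FPKM in non-diabetic replicates 1 to 3. The diabetic libraries lay above those of both other groups. Its log2 difference of diabetic from non-diabetic ulcers was 3.00 (SE 1.18, adjusted p = 0.113, limma).

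Ckm, muscle creatine kinase, stood at 259, 229 and 163 FPKM in PRP, 760, 165 and 136 FPKM in diabetic and 10.2, 266 and 89.3 FPKM in non-diabetic replicates 1 to 3. Pygm, muscle glycogen phosphorylase, stood at 143, 170 and 102 FPKM in PRP, 381, 70.5 and 68.4 FPKM in diabetic and 6.36, 214 and 64.0 FPKM in non-diabetic replicates. In both, non-diabetic replicate 2 was above diabetic replicates 2 and 3, and the groups overlapped. The log2 difference of diabetic from non-diabetic ulcers was 2.00 for Ckm (SE 1.07, adjusted p = 0.211, limma) and 1.40 for Pygm (SE 1.13, adjusted p = 0.393, limma). Without non-diabetic replicate 1 it was 0.74 for Ckm and 0.066 for Pygm. Mb alone of the 5 energy genes with an unadjusted p under 0.05.

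The last role held the ubiquitin ligases that mark muscle proteins for breakdown in atrophy. Trim63 (MuRF1, chromosome 5, 146533507 to 146547322) stood at 21.1, 21.5 and 16.7 FPKM in PRP, 131, 83.9 and 20.0 FPKM in diabetic and 0.997, 13.9 and 11.6 FPKM in non-diabetic replicates 1 to 3. The diabetic and the PRP libraries each lay above all non-diabetic ones. Its log2 difference of diabetic from non-diabetic ulcers, 3.10 (SE 0.85, adjusted p = 0.0539, limma), was the largest of the 37 and had the smallest adjusted p.

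Fbxo32 (atrogin-1, chromosome 7, 89730232 to 89765436) stood at 18.4, 19.3 and 17.1 FPKM in PRP, 99.4, 43.1 and 24.6 FPKM in diabetic and 10.4, 28.8 and 14.8 FPKM in non-diabetic replicates 1 to 3. The PRP libraries all lay below the diabetic ones. Non-diabetic replicate 2 lay between diabetic replicates 2 and 3, so the diabetic and non-diabetic groups overlapped (log2 difference 1.47, SE 0.49, adjusted p = 0.0821, limma).

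**Figure D2:**
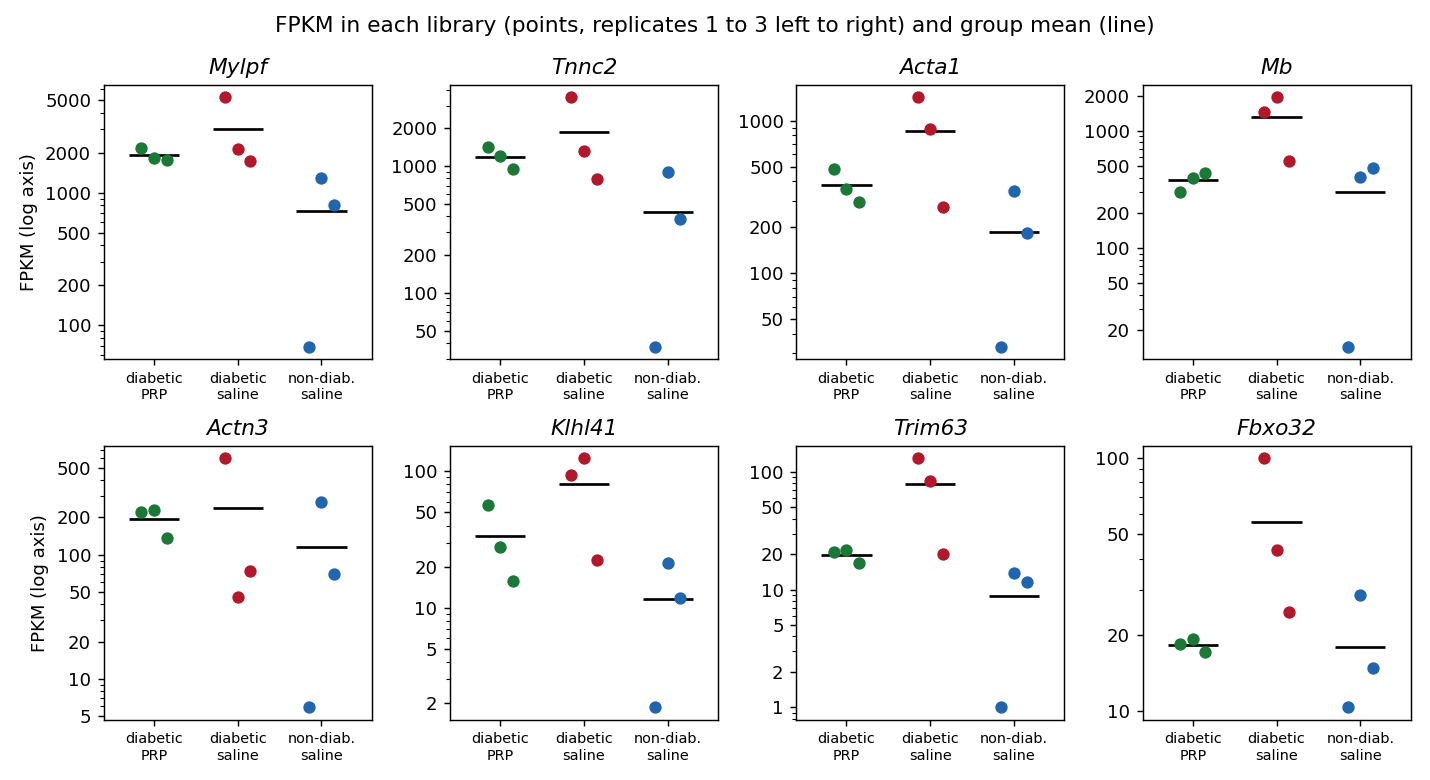
FPKM of 8 members on a log axis in each library (points, replicates 1 to 3 from left to right) with the group mean (line), for diabetic PRP, diabetic saline and non-diabetic saline ulcers. Mylpf ran from 1756 to 2184 FPKM in PRP, 1733 to 5230 FPKM in diabetic and 69.0 to 1293 FPKM in non-diabetic ulcers, and Fbxo32 is lower in the 3 PRP libraries than in the 3 diabetic ones.

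Set against all features, the comparison of diabetic with non-diabetic ulcers gave 0 of 37 members at an adjusted p under 0.05 in limma, where 8.95% of the 15600 features passed (1.79% higher and 7.16% lower). That background was itself unstable, with 0 features passing when the fit held only the 6 libraries compared. At an unadjusted p under 0.05, 24 of 37 were higher and 0 lower, against 15.7% of all features higher and 19% lower. In 14 of 37 the 3 diabetic libraries all lay above the 3 non-diabetic ones, against 14.4% of all features, and in 0 all below, against 19.6%. The median log2 difference of the members was 2.17, and that of all tested features 0.05. Standard errors of the members had a median of 0.88, where the median over all features was 0.22. The result depended on which non-diabetic library was kept. Without non-diabetic replicate 2, 17 of 37 members passed. So did 3501 of all 15600 features (1515 higher), against 1396 (279 higher) with all 9 libraries. The median of the members was 1.16 without non-diabetic replicate 1, which lowered the difference by over 1.5 times in 29 of 37 genes. With non-diabetic replicate 2 as the sole library of its group, the median was 0.92 and 29 of 37 were higher.

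For PRP-treated against saline-treated diabetic ulcers, 0 of 37 members and 0% of features passed at an adjusted p under 0.05 in limma. At an unadjusted p under 0.05, 2 of 37 were lower, Myh2 and Fbxo32, and 0 higher, against 2.56% of all features lower and 3.98% higher. In 4 of 37 the PRP libraries all lay below the diabetic ones (Myh2, Trdn, Mb and Fbxo32), against 5.55% of all features, and in 0 all above, against 5.79%. The median log2 difference was -0.69, where that of all features was -0.06. It was -0.22 without diabetic replicate 1 and -1.24 without diabetic replicate 3. Myh2, the heavy chain of oxidative fast fibres (type 2A), differed most, with 24.0, 48.8 and 29.6 FPKM in PRP and 143, 303 and 56.9 FPKM in diabetic replicates 1 to 3 (log2 difference -2.02, SE 0.86, adjusted p = 0.713, limma). In non-diabetic replicates 1 to 3 Myh2 was at 4.83, 50.2 and 40.7 FPKM.

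Other differences of PRP from saline-treated diabetic ulcers were smaller or less certain. The log2 difference was -1.33 for Fbxo32 (95% interval -2.45 to -0.20), -1.58 for Trim63 (-3.51 to 0.35), -1.63 for Mb (-4.31 to 1.05), -1.59 for Actn2 (-3.30 to 0.13) and -1.39 for Ttn, titin (-3.47 to 0.70). For the abundant Mylpf it was -0.48, with an interval from -2.70 to 1.73 that spans 0 widely on both sides. These intervals rest on the spread in all 3 groups, the widely spread non-diabetic group included. With only the 6 libraries compared, 5 of 37 members and 937 of 15600 features had an unadjusted p under 0.05 in limma, and 0 passed. Of the 37, 4 averaged higher with PRP on the log2 scale (Mybpc2, Actn3, Myoz1 and Pygm). That number was 2 when libraries were rescaled to the same sum, and the differences of Mybpc2 and Actn3, 0.77 and 0.57, were -0.24 and -0.15 without diabetic replicate 2. That rescaling moved the median of all features to -0.23, and the median of the members was then -0.89.

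Against non-diabetic ulcers, PRP-treated diabetic ulcers gave 0 of 37 members at an adjusted p under 0.05 in limma, where 0.00641% of features passed. At an unadjusted p under 0.05, 1 of 37 was higher, Myl1, and 0 lower, against 7.56% of all features higher and 12.8% lower. Myl1 had a log2 difference of 2.32 (SE 0.97, adjusted p = 0.229, limma). In 6 of 37 the PRP libraries all lay above the non-diabetic ones (Tnni2, Tnnc2, Myl1, Mylpf, Trdn and Trim63), against 8.92% of all features, and in 0 all below, against 20.4%. The median log2 difference was 1.41, and that of all features -0.04. It was 0.39 without non-diabetic replicate 1. This comparison shares its libraries with the other comparisons.

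**Figure D3:**
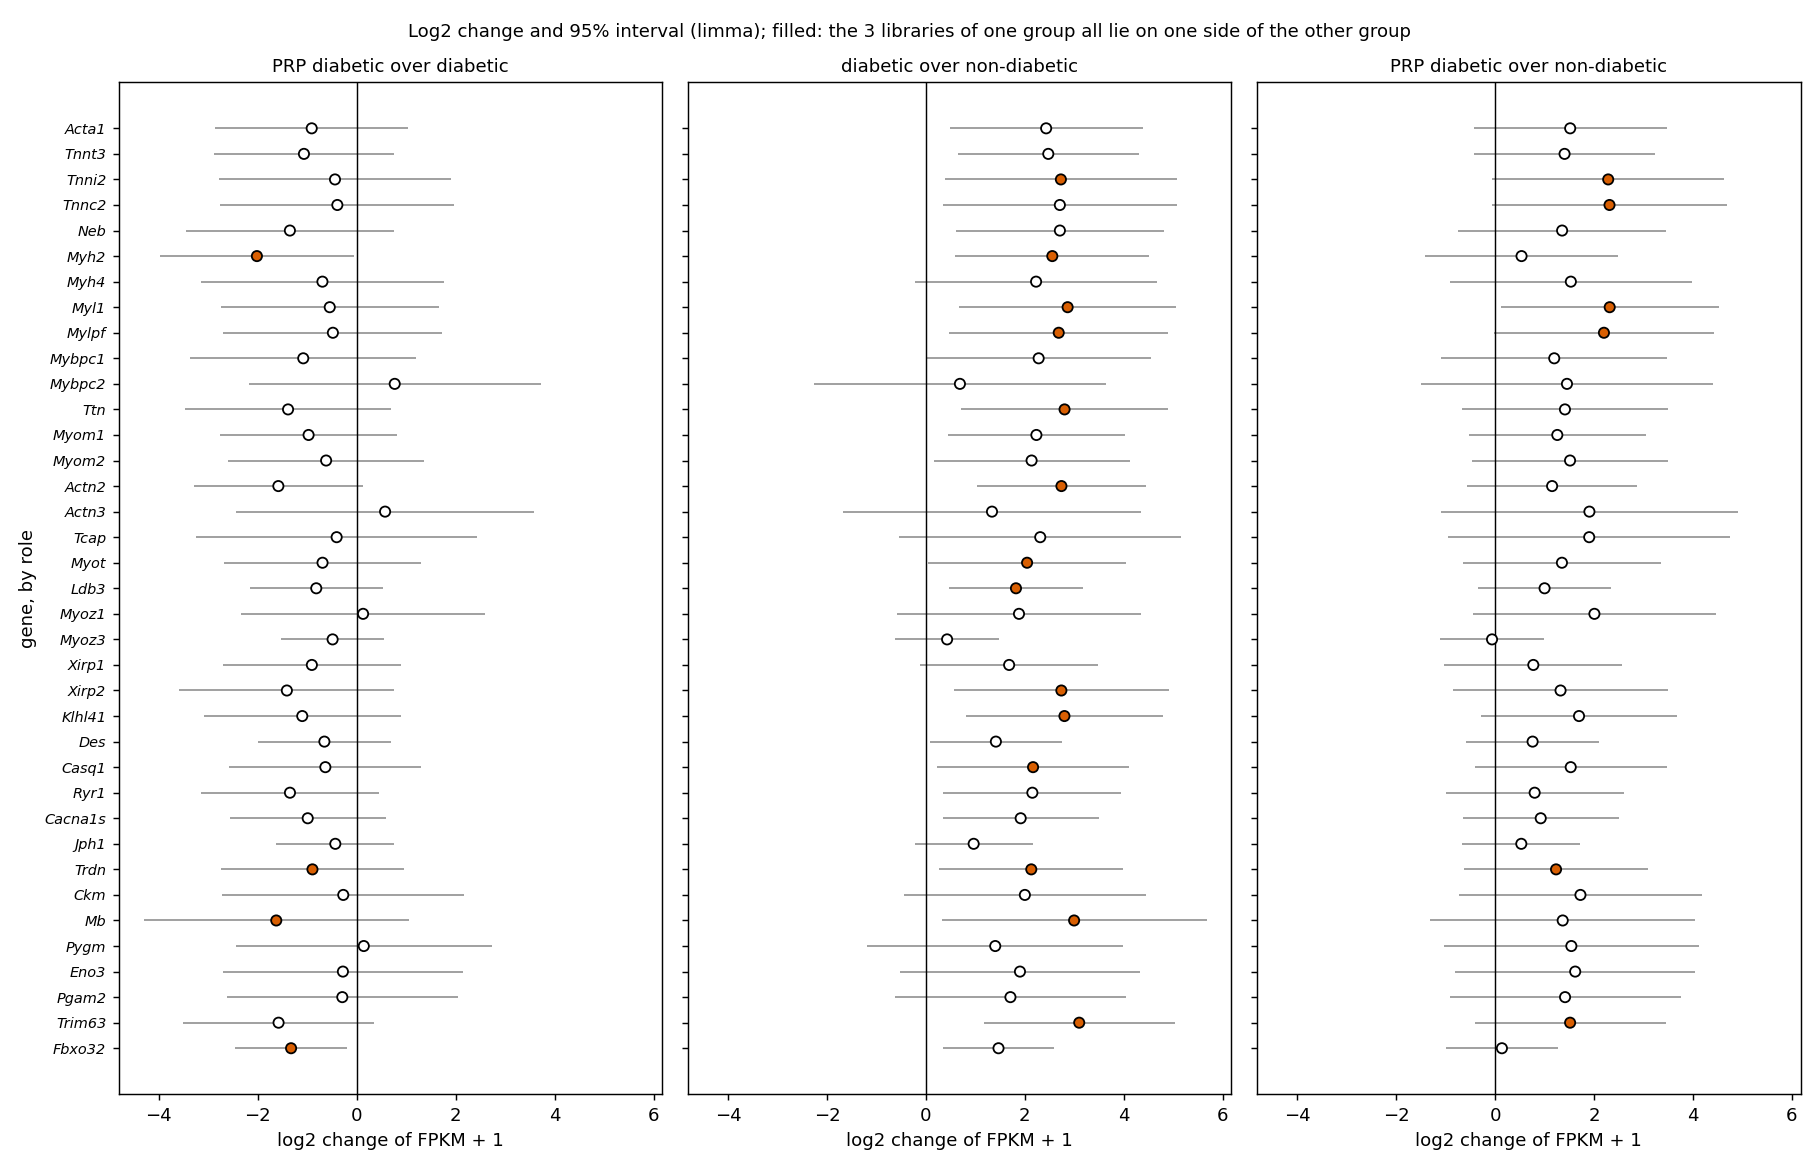
Log2 difference (points) with its 95% interval (lines) from limma for 37 genes in 3 comparisons, each named above its panel, with genes in the same order and the same axis. Filled points mark genes whose groups do not overlap, 4 of 37 for PRP over diabetic, 14 for diabetic over non-diabetic and 6 for PRP over non-diabetic ulcers.

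Where 2 genes are made by muscle alone, their ratio within a library does not move with the amount of muscle RNA as a whole. Ratios were therefore used to compare the kind of muscle transcripts. Whether each gene came from muscle alone was not tested. Of the adult and developmental myosin heavy chains, 5 had a row in the table. Myh4, the heavy chain of the fastest fibres (type 2B), took 90.6%, 90.0% and 86.5% of their summed FPKM in PRP replicates 1 to 3, 89.2%, 60.6% and 79.7% in diabetic replicates and 69.4%, 90.6% and 80.2% in non-diabetic replicates. Myh2 took 2.85%, 8.18% and 7.68% in PRP, 5.82%, 24.4% and 12.9% in diabetic and 10.9%, 6.46% and 12.9% in non-diabetic replicates. Diabetic replicate 2 thus had the lowest Myh4 and the highest Myh2 share of the 9 libraries. The groups overlapped for both genes.

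Myh7, the slow heavy chain, took 0.989%, 0.315% and 0.421% in PRP, 2.03%, 2.72% and 2.30% in diabetic and 0.727%, 1.68% and 3.86% in non-diabetic replicates 1 to 3. Its share was lower in all 3 PRP libraries than in all 3 diabetic ones (means 0.575% ± 0.363 in PRP and 2.35% ± 0.348 in diabetic ulcers, SD, n = 3 each, exact two-sided permutation p = 0.1, the smallest that 3 against 3 allows). Adjusted over 15 tests of shares, the exact permutation p was 0.75, and no share had a smaller one. The developmental chains Myh3 and Myh8 took 12.0% and 6.96% in non-diabetic replicate 1, where the sum of the heavy chains was 44.2 FPKM, against 315 to 2451 FPKM in the other libraries. In diabetic replicate 2, where that sum was 1241 FPKM, they took 8.88% and 3.38%. The remaining libraries had 0.755% to 2.96% of Myh3 and 0.529% to 3.25% of Myh8. The rows of Myh4 and Myh2 lie side by side on chromosome 10 (51885913 to 51946295 and 51856738 to 51883236). The annotated Myh4 spans 60.4 kb against 26.5 kb for Myh2. The listed Myh1 has no row of its own name, and the Myh4 row may cover more than 1 gene model. Whether its share is that of type 2B fibres alone was not tested. The labels do not say how reads shared by these near-identical genes were assigned, so the split between them is uncertain.

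**Figure D4:**
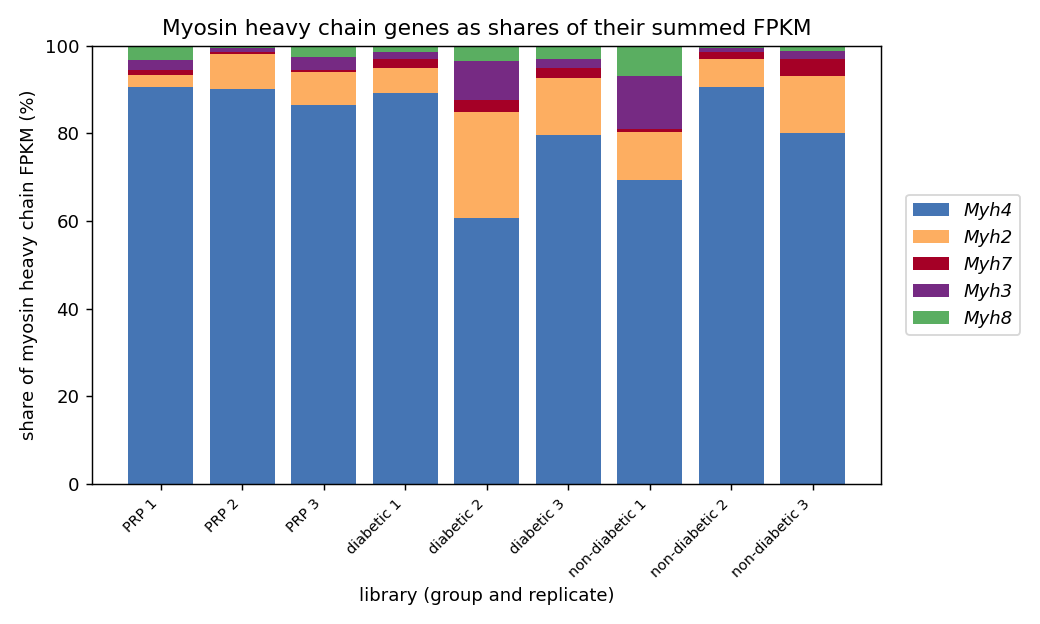
Shares of 5 myosin heavy chain genes (stacked bars, in % of their summed FPKM) in each of 9 libraries. Myh4 takes 60.6% in diabetic replicate 2 and 69.4% in non-diabetic replicate 1, and 79.7% to 90.6% in the other libraries.

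Paralogue pairs that mark fast or general fibres differed in the same libraries. These ratios were chosen after the values were seen and are given without a test. Actn3 over Actn2 was 4.33, 10.2 and 6.30 in PRP, 5.52, 0.255 and 2.03 in diabetic and 1.60, 12.8 and 3.00 in non-diabetic replicates 1 to 3. Mybpc2 over Mybpc1, the slow-type myosin-binding protein C that fast fibres also make, was 0.758, 0.917 and 1.14 in PRP, 0.669, 0.0462 and 0.500 in diabetic and 0.681, 1.35 and 0.468 in non-diabetic replicates. Diabetic replicate 2 was the lowest of the 9 libraries in both, and for Mybpc2 over Mybpc1 the PRP libraries lay above all diabetic ones.

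Mb over Ckm was 1.17, 1.72 and 2.70 in PRP, 1.90, 11.7 and 4.09 in diabetic and 1.42, 1.53 and 5.43 in non-diabetic replicates 1 to 3, with diabetic replicate 2 the highest and the groups overlapping. Trim63 over Ckm was 0.0813, 0.0940 and 0.102 in PRP, 0.173, 0.508 and 0.146 in diabetic and 0.0974, 0.0523 and 0.129 in non-diabetic replicates. The diabetic libraries were above those of both other groups in this ratio. Against titin the same gene gave 0.135, 0.208 and 0.339 in PRP, 0.257, 0.219 and 0.267 in diabetic and 0.108, 0.189 and 0.206 in non-diabetic replicates, so that PRP and diabetic libraries overlapped. The separation of PRP from diabetic ulcers for Trim63 therefore depended on the gene it was set against. Fbxo32 over Ttn was 1.12 in non-diabetic replicate 1, the library lowest for every member, and 0.113 to 0.390 in the other libraries.

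**Figure D5:**
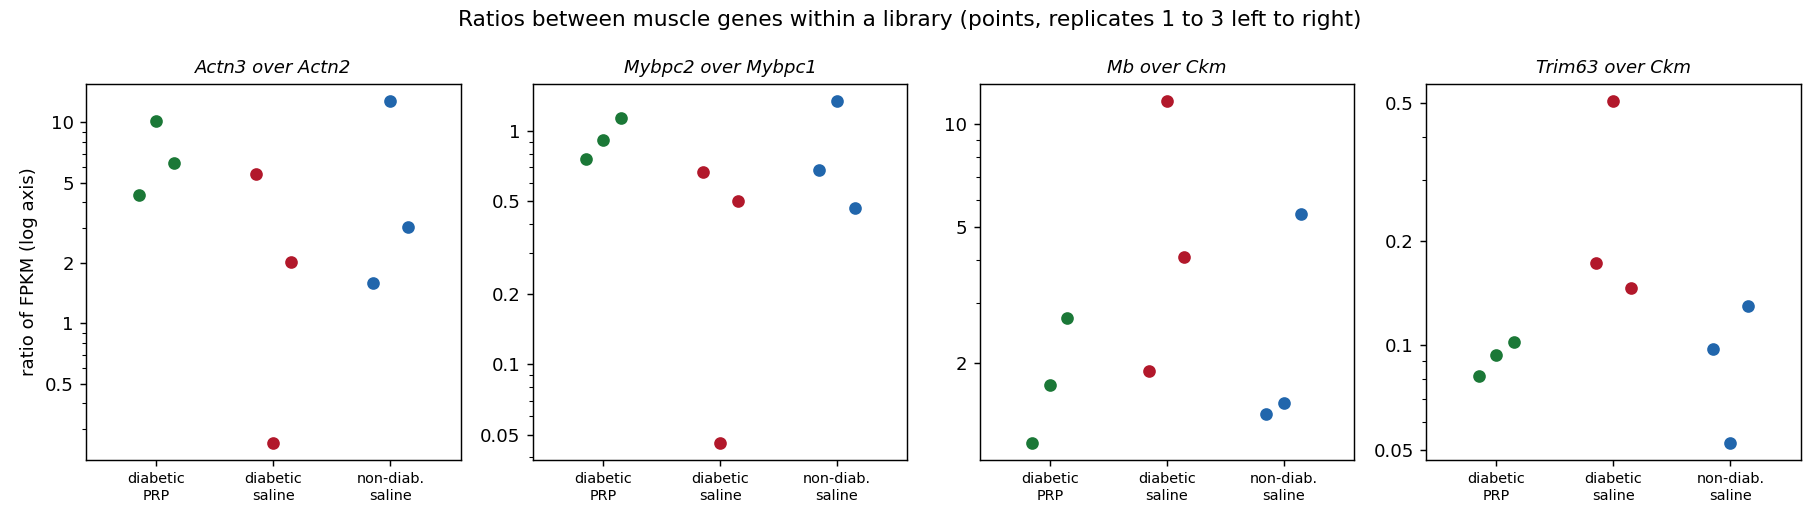
Ratio of FPKM of 2 genes within each library (points, replicates 1 to 3 from left to right, log axis) for 4 pairs and 3 groups. Diabetic replicate 2 is the lowest point for Actn3 over Actn2 (0.255) and Mybpc2 over Mybpc1 (0.0462) and the highest for Mb over Ckm (11.7) and Trim63 over Ckm (0.508).

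Each member was also set against the mean log2(FPKM + 1) of the 14 thin and thick filament members of its library. This contractile level was 7.86, 7.66 and 7.17 in PRP, 9.40, 8.44 and 7.25 in diabetic and 3.75, 7.47 and 6.68 in non-diabetic replicates 1 to 3. Relative to it, Acta1 was the steadiest gene, with values within 0.52 of each other over the 9 libraries, and Mybpc2 the least steady, with a range of 4.53. PRP and diabetic libraries did not overlap for 7 of 37 genes, 5 higher with PRP (Tnnc2, Mybpc2, Actn3, Myoz1 and Pygm) and 2 lower (Trim63 and Fbxo32). Of all features set against the same level, 4.37% were higher and 0.0577% lower without overlap. The contractile level averaged lower in PRP than in diabetic libraries, which by itself moves features that do not vary with muscle upward with PRP. These shares are therefore no baseline for the counts of members. Trim63 lay at -3.39, -3.16 and -3.02 in PRP and at -2.35, -2.03 and -2.86 in diabetic replicates 1 to 3, and Fbxo32 at -3.58, -3.31 and -2.99 in PRP and at -2.75, -2.98 and -2.57 in diabetic replicates. The Fbxo32 values of PRP replicate 3 and diabetic replicate 2 lay next to each other. In non-diabetic replicates 1 to 3 Fbxo32 lay at -0.24, -2.57 and -2.70. Diabetic and non-diabetic libraries did not overlap for 3 of 37 genes, Mybpc2, Myoz3 and Jph1, all lower in diabetic ulcers. Of all features, 32.5% were lower and 0% higher without overlap. These shares are no baseline either, since the contractile level averaged higher in diabetic than in non-diabetic libraries. For Mybpc2, diabetic replicate 1 at -1.52 and non-diabetic replicate 1 at -1.46 lay next to each other. Mybpc2, Acta1 and Tnnc2 are themselves among the 14 genes of that level. No test was made on this scale, and genes of a few FPKM are held up in non-diabetic replicate 1 by the pseudocount.

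Further muscle genes outside the list were read in the same way. Of 25 tested fast-fibre and sarcomere genes outside the list, 24 averaged higher in diabetic than in non-diabetic ulcers, with a median log2 difference of 1.76. Of these 1 passed, Synpo2l, a Z-disc protein, which rose to 12.6 ± 7.52 FPKM in diabetic ulcers, against 1.77 ± 1.01 FPKM in non-diabetic ulcers (SD, n = 3 each; log2 change 2.15, SE 0.52, adjusted p = 0.0432, limma). Of 16 tested triad and calcium genes outside the list, 14 averaged higher (median 1.82) and 2 passed. These were Mrln, myoregulin, a micropeptide that inhibits the calcium pump (log2 change 2.21, SE 0.57, adjusted p = 0.0476, limma), and Sypl2, mitsugumin 29 of the triad (2.00, SE 0.48, adjusted p = 0.0436, limma). Together with the slow-fibre and embryonic genes described next, 7 muscle genes outside the list passed, where 1.79% of all features passed as higher. Their calls depended on the settings. All 7 were lost without the filter and in the fit of the 6 libraries alone. They were also lost when any 1 of 6 libraries was left out (diabetic replicates 2 and 3, PRP replicates 1 and 2, and non-diabetic replicates 1 and 3). This loss was not particular to them. Over the whole table, calls fell from 1396 to 8 without the filter, to 0 in the fit of 6 libraries and to 0 to 2 in these leave-outs. Mrln and Sypl2 also lost their calls with a pseudocount of 0.1, Mrln and Myh8 with median-ratio size factors, and Mrln with libraries rescaled to the same sum.

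Slow-fibre genes are given as a description. Of 10 tested slow-fibre genes, 9 averaged higher in diabetic than in non-diabetic ulcers (median log2 difference 2.11) and 2 passed, Myoz2 (2.98) and Csrp3 (3.85). With PRP all 10 averaged lower than in diabetic ulcers, with a median of -1.68. Of these, 8 had an unadjusted p under 0.05, against 2.56% of all features lower, and 0 passed in limma. Myh7 was at 8.32, 1.88 and 1.62 FPKM in PRP, 49.7, 33.7 and 10.1 FPKM in diabetic and 0.322, 13.0 and 12.2 FPKM in non-diabetic replicates 1 to 3 (log2 difference of PRP from diabetic ulcers -2.71, SE 0.98, adjusted p = 0.713, limma). The difference between slow and fast genes was not tested.

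Of 10 tested genes of embryonic and regenerating muscle, 9 averaged higher in diabetic than in non-diabetic ulcers (median 2.15). Of these, 2 passed, the perinatal heavy chain gene Myh8 (29.4 ± 14.9 FPKM in diabetic and 3.59 ± 0.516 FPKM in non-diabetic ulcers, SD, n = 3 each; log2 change 2.58, SE 0.64, adjusted p = 0.0445, limma) and Tnnt2, the cardiac and embryonic troponin T (log2 change 1.68, SE 0.33, adjusted p = 0.0329, limma). The satellite cell gene Pax7 was below the filter and stood at 0.0487 to 0.116 FPKM in PRP, 0.0306 to 0.333 FPKM in diabetic and 0.0185 to 0.0630 FPKM in non-diabetic ulcers. Of the genes of this list with a row, all but Ncam1, Myl4 and Myf5 were highest in diabetic replicate 2. That library had 9.20 FPKM of Mymx (below the filter), 20.7 FPKM of Chrna1 and 31.8 FPKM of Myog. The other libraries had at most 0.460, 3.06 and 9.94 FPKM of these genes.

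Markers of other cells that make related proteins or share the tissue were read beside the muscle genes. Of 10 cardiomyocyte genes 3 passed the filter, and the sum of the 10 was 2.89 to 16.4 FPKM in PRP, 4.85 to 6.92 FPKM in diabetic and 3.17 to 8.64 FPKM in non-diabetic libraries. The heart markers Nppa, Tbx5, Nkx2-5 and Myl7 were each listed at 0 in some of them, and the others in none. Over the 9 libraries Nppb ran from 0.742 to 14.6 FPKM and Myh6 from 0.245 to 2.85 FPKM. All 10 smooth muscle and pericyte genes were tested, with 0 passing. Their sum was 285 to 413 FPKM in PRP, 269 to 391 FPKM in diabetic and 412 to 766 FPKM in non-diabetic libraries (506 in non-diabetic replicate 1). Non-diabetic replicate 1 was thus not low in smooth muscle genes.

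Genes of epidermis, connective tissue and fat also differed between libraries. The summed FPKM of 7 keratinocyte genes was 5094 to 10619 in PRP, 3982 to 5987 in diabetic and 2804, 3264 and 186 in non-diabetic replicates 1 to 3, with 0 of 7 passing. That of 10 hair follicle genes was 703 to 2838 in PRP, 461 to 7210 in diabetic and 191, 2416 and 9.25 in non-diabetic replicates, with 0 of 10 passing. Of 10 fibroblast genes 4 passed for diabetic against non-diabetic ulcers, lower in diabetic ulcers (sum 10668 to 24481 FPKM in PRP, 3189 to 16843 FPKM in diabetic and 18351 to 23421 FPKM in non-diabetic libraries). Of 10 macrophage genes 6 passed, lower in diabetic ulcers (sum 877 to 1799, 306 to 1372 and 2028 to 2732 FPKM, in the same order of groups). Over all features, 7.16% passed as lower in diabetic ulcers. Of 9 tested adipocyte genes 0 passed (sum of 10 genes 463 to 825, 809 to 892 and 465 to 626 FPKM, in the same order). The part of these markers in the muscle values was not tested.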

How the data were processed

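RNA of 9 ulcer skin libraries was read from the authors' deposited gene table, whose FPKM unit is given by its name. Per the submitters' processing notes, HISAT2, StringTie, cutadapt and FastQC were used with the mouse build GRCm39. No versions are listed. The labels also give mouse, while the series design describes rats and all 30560 identifiers are rat Ensembl identifiers. Rat coordinates are as the table gives them, on a build not given in the sources used here, and no sequence is printed. The authors' deposited read counts of 249 lncRNA genes, per the file headers, served only for relative depth (55 genes with at least 50 reads in each library). Whole-transcriptome read totals are not given, so counting error could not be computed.

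FPKM of rows with the same name were summed. Features of at least 0.5 FPKM in 3 or more libraries were fitted as log2(FPKM + 1) with limma-trend (limma 3.58.1, R 4.3.3), with group as the term, over 9 libraries, with two-sided contrasts and Benjamini-Hochberg adjustment over 15600 features. A single spread per gene was estimated over the 9 libraries, so a gene has the same SE in all 3 comparisons. Genes with an adjusted p under 0.05 passed. Log2 differences understate the change of genes of a few FPKM. The procedure was also run on simulated data with independent genes and the same spread in every group. That spread was set below the one seen here, so the run does not measure power or error for these genes. Shares of myosin heavy chains were compared with exact permutation tests (scipy 1.17.1). The design named 6 heavy chains, of which Myh1 had no row. The labels number the libraries as biological replicates, and p-values measure the spread between them.

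The genes, their roles and the marker lists were chosen with earlier results of these data known. Values in all libraries are given for the most abundant pair of each role and for the largest and smallest log2 difference of diabetic from non-diabetic ulcers. For the other muscle lists the rule allows the 4 genes of smallest p for diabetic against non-diabetic ulcers, and those of them that passed are named. Myh4, Myh2, Actn2 and the ratios were picked after their values were seen. So were Myh7, Pax7, Mymx, Chrna1, Myog, Ttn, Des, Ryr1, Cacna1s and the named cardiomyocyte genes. Alternatives were another pseudocount, no filter, other scalings, fewer libraries, a replicate block and sample weights.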

Additional observations from a re-analysis of the deposited data

How the results depend on the processing

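The number of members that passed stayed at 0 in all 3 comparisons with a pseudocount of 0.1, no filter, median-ratio size factors, rescaling to the same sum and only the 6 libraries compared, while the features that passed for diabetic against non-diabetic ulcers numbered 1154, 8, 885, 1596 and 0 in that order. Same-numbered libraries deviated from their group means with correlations from -0.41 to 0.35, and 0 of 9 libraries were closest to their own number in both other groups, so the numbers were not used as pairs. With the replicate block 0 members passed in each comparison, and 1259 features passed for diabetic against non-diabetic ulcers, where 1396 did without it. Of 7 muscle genes outside the list that passed, the block ended the calls of Mrln, Sypl2, Myoz2 and Myh8 (adjusted p up to 0.0655). Sample weights gave non-diabetic replicate 1 a weight of 7.50 and non-diabetic replicate 2 a weight of 0.482. With them, 31 members passed for diabetic and 35 for PRP-treated against non-diabetic ulcers, with median log2 differences of 3.66 and 2.99. Calls rose over the whole table too, to 5607 and 6474 of 15600 features in these comparisons, against 1396 and 1 without weights. Leaving out 1 library gave 0 to 17 members for diabetic against non-diabetic ulcers and 0 in the other comparisons, and 0 to 3501 features over the whole table for diabetic against non-diabetic ulcers. The medians then ran from 1.16 to 2.93 for diabetic against non-diabetic, from -1.24 to -0.22 for PRP against diabetic and from 0.39 to 2.05 for PRP against non-diabetic ulcers. With non-diabetic replicate 2 as the sole library of its group, whose spread is then taken from the other groups, the last median was -0.0021, and for diabetic against non-diabetic ulcers Mybpc2 was at -1.54, Actn3 at -1.06, Pygm at -0.80, Ckm at -0.047 and Myoz3 at -0.035. The cause was not tested.

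With 1 library left out, the difference of diabetic from non-diabetic ulcers ran from -0.65 to 1.80 for Mybpc2, from -0.11 to 2.54 for Actn3 and from -0.10 to 0.77 for Myoz3. That of PRP from diabetic ulcers ran from -0.24 to 1.88 for Mybpc2 and from -0.15 to 1.68 for Actn3. In percentage points of the myosin sum, diabetic minus non-diabetic ran from -9.90 to 4.42 for Myh4, from -0.75 to 8.55 for Myh2, from -0.42 to 1.15 for Myh7, from -3.02 to 2.87 for Myh3 and from -1.49 to 1.73 for Myh8. PRP minus diabetic ran from -3.49 to 0.18 for Myh3 and from -1.05 to 0.30 for Myh8, and PRP minus non-diabetic from -4.91 to 0.70 for Myh3 and from -1.95 to 1.27 for Myh8. Each group has 3 libraries, and what depth limits could not be computed without read totals.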
